A study of Homo sapiens with 4 samples.

Results

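The exons described here were skipped rarely or not at all in control cells, and the question was how many of them gained reads that skip them when the splicing protein U2B'' was depleted. They were chosen by rule from the deposited inclusion levels: an exon was taken when ψ, the fraction of transcripts that keep it, was at least 0.95 in the siCtrl file and at least 100 reads in each file fitted only the isoform with the exon. With 1 event kept per exon, that with the most such reads, 5553 exons in 3481 genes met the rule, of 8453 exons with that depth and 34037 exons with an event in both files. The study transfected MDA-LM2 cells, which derive from the human breast cancer line MDA-MB-231 by selection for lung metastasis. The siSNRPB2 group had 2 libraries of cells with SNRPB2 silenced, with 2 independent siRNAs named in the series, and the siCtrl group had 2 libraries of cells given a control siRNA. All cells were taken 48 h after lipid-based transfection, and total RNA was made into stranded libraries. The labels give a knockdown above 95% by quantitative PCR, and do not say which library had which siRNA. Each file holds 1 value per event for its group, so no value below has a replicate check, an SD or a p-value.

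SNRPB2 encodes U2B'', which together with the product of SNRPA1 binds a stem-loop of the U2 small nuclear RNA. The U2 particle pairs with the branch point of an intron and thereby marks the 3' splice site that follows for use. An exon is skipped when the 5' splice site before it is joined to the 3' splice site after it. A read across that junction fits only the isoform without the exon, and is called a skipping (exclusion-only) read here. A read that lies in the exon or crosses a junction with it is called an inclusion (inclusion-only) read, a read within the neighbouring exons that fits both isoforms is called shared, and skipping plus inclusion reads are called informative. Constitutive exons are those that all transcripts of a gene keep. By annotation most exons here were not of that kind, since for 5177 of 5553 (93.2%) GENCODE 29 lists a transcript that joins both neighbours directly; they are therefore called near-constitutive.

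The coding exons with the largest gain of skipping reads in siSNRPB2 are printed first, because they carry the clearest single cases. The exon is in capitals and 15 bases of each neighbouring exon are in lower case, 5′ to 3′ on the transcript, from GENCODE 29 transcripts (hg38). When the exon is skipped, the lower-case stretches are joined to each other. The DDX42 exon is shown as the case among U2 and 3' splice site factors, and CMC2 as the gaining exon with the most skipping reads.
ACACA exon, chr17:37151301-37151421 (- strand): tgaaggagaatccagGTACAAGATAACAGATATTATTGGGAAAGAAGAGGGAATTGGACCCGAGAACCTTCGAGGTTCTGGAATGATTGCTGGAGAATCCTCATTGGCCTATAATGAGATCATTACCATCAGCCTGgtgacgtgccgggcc
KITLG exon, chr12:88515534-88515617 (- strand): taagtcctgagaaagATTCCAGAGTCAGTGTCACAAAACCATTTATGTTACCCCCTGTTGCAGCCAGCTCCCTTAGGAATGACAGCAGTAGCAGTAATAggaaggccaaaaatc
MACF1 exon, chr1:39378461-39378523 (+ strand): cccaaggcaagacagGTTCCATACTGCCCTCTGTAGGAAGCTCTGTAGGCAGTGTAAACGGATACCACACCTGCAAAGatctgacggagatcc
CDADC1 exon, chr13:49259346-49259523 (+ strand): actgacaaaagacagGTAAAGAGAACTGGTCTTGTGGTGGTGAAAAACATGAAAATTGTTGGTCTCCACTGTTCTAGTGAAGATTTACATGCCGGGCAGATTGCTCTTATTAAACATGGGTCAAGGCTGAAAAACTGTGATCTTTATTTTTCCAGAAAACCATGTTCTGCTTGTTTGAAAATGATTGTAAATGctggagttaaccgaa
CDK14 exon, chr7:90747681-90747775 (+ strand): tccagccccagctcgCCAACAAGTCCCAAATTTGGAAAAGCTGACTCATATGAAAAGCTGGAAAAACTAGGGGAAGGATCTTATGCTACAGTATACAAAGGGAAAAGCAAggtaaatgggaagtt
RBFOX2 exon, chr22:35756105-35756144 (- strand): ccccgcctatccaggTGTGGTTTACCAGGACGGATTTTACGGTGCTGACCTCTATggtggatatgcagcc
DDX42 exon, chr17:63799589-63799625 (+ strand): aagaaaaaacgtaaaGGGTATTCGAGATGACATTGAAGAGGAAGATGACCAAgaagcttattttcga
CMC2 exon, chr16:80981806-80981877 (- strand): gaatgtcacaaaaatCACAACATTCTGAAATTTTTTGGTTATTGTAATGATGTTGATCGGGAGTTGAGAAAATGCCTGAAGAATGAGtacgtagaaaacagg

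The first of these belong to ACACA (acetyl-CoA carboxylase, the committed enzyme of fatty acid synthesis), KITLG (the ligand of the KIT receptor), MACF1 (a linker of actin and microtubules), CDADC1 (a cytidine deaminase family member), CDK14 (a cyclin-dependent kinase) and RBFOX2 (a splicing regulator). The KITLG, MACF1 and CMC2 exons have a length divisible by 3, so that skipping keeps the reading frame. The KITLG exon is the one known to encode the site at which the membrane-bound ligand is cleaved. The other 5 change the frame. The ACACA, MACF1 and CDADC1 exons begin and end with G, and the others end or begin with another base.

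For comparison, the same rule was mirrored: exons with ψ of at least 0.95 in siSNRPB2 were asked for a gain of skipping reads in siCtrl. The 3 coding exons with the largest gain in that direction are printed in the same way. They belong to HADHB (a subunit of the mitochondrial trifunctional protein of fatty acid oxidation), FAM173A and C12orf29.
HADHB exon, chr2:26269953-26269997 (+ strand): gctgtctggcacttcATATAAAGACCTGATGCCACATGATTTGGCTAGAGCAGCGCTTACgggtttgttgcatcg
FAM173A exon, chr16:722084-722134 (+ strand): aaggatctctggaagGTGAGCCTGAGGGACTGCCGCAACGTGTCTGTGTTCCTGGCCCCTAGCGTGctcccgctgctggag
C12orf29 exon, chr12:88040148-88040265 (+ strand): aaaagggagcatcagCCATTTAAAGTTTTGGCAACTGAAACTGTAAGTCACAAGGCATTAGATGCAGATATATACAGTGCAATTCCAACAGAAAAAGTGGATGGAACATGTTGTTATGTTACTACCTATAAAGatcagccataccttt

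Choosing exons for a high ψ in one file leaves little room for skipping reads in that file, so a gain in the other file is partly built into the choice. The mirrored selection carries the same bias in the other direction, and the gain in siSNRPB2 is read only against it. It held 5531 exons in 3461 genes, of which 4969 were also in the first selection. A gain was defined as at least 10 skipping reads in the gaining file and a share of skipping reads among informative reads at least 3 times that of the other file, where a count under 3 was set to 3.

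By this definition 269 of 5553 near-constitutive exons gained skipping reads in siSNRPB2 (4.84%), against 215 of 5531 mirrored exons that gained them in siCtrl (3.89%). Over all 8453 exons of the same depth, whatever their ψ, 4.79% gained skipping reads in siSNRPB2 and 3.77% in siCtrl. The ratio of the percentages was 1.25 for the selected exons and 1.27 for all exons. The share of near-constitutive exons that gained was thus close to the share over all exons, in each direction. The gains lay in 239 genes and on 247 different skipping junctions in siSNRPB2, against 191 genes and 195 junctions in siCtrl. Some related genes had identical counts, which may be the same reads. NBPF10, NBPF14 and NBPF20 each had 31 skipping and 1235 inclusion reads in siSNRPB2, and GTF2H2B and GTF2H2C each had 34 and 748. In 12 genes there were gaining exons in both directions, among them ASPH, CLTA, COPE, MBNL1, MLEC and SETD5. With 1 value per group, whether the excess of 269 over 215 exceeds the difference between 2 libraries of one group cannot be told from these files.

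**Figure D1:**
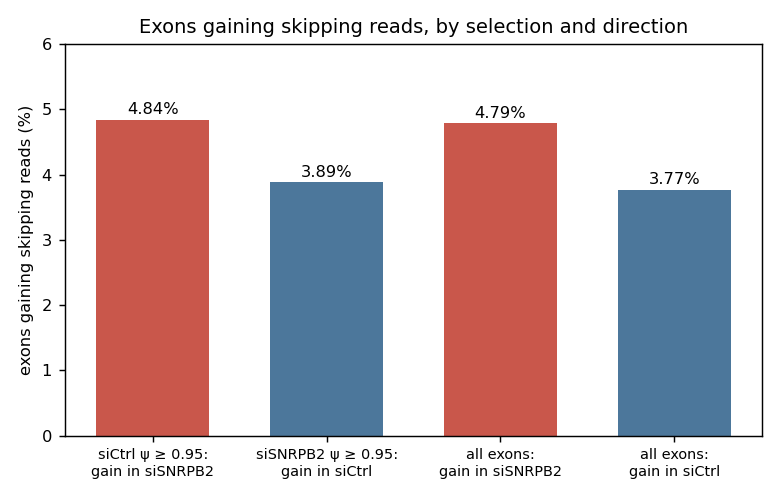
Percentage of exons gaining skipping reads, with the near-constitutive exons and their mirrored selection on the left and all exons of the same depth on the right. The percentages are 4.84 and 3.89 for the selections, and 4.79 and 3.77 for all exons. Each bar is 1 percentage from 1 pair of files, so there are no error bars.

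Most near-constitutive exons had no skipping read at all. In 4216 of the 5553 (75.9%) neither file held one, 581 had them in siSNRPB2 only, 321 in siCtrl only, and 435 in both. In the mirrored selection 388 exons had them in siSNRPB2 only and 504 in siCtrl only. Among the 6115 exons with ψ of at least 0.95 in either file, a choice that treats both files alike, the share of skipping reads was higher in siSNRPB2 in 897 and higher in siCtrl in 711. Over all 8453 exons it was higher in siSNRPB2 in 1489 and in siCtrl in 1306. Over the near-constitutive exons together, 13575 of 5857148 informative reads in siSNRPB2 were skipping, a share of 0.232% (exact 95% interval 0.228 to 0.236), against 7825 of 6744837 in siCtrl, 0.116% (0.113 to 0.119). Over the mirrored exons the shares were 0.119% in siSNRPB2 (0.116 to 0.122) and 0.166% in siCtrl (0.163 to 0.169). Over all 8453 exons they were 2.03% in siSNRPB2 and 1.94% in siCtrl. Over the 4809 exons whose event with the most inclusion reads had ψ of at least 0.95 in both files they were 0.113% and 0.0972%. All intervals cover counting error only, since reads without molecular identifiers are not independent molecules. Without the gaining exons, the shares of the remaining 5284 near-constitutive exons were 0.127% in siSNRPB2 and 0.114% in siCtrl. Those of the remaining 5316 mirrored exons were 0.119% and 0.0994%. Leaving out exons called for a gain lowers the share of the gaining file by design.

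**Figure D2:**
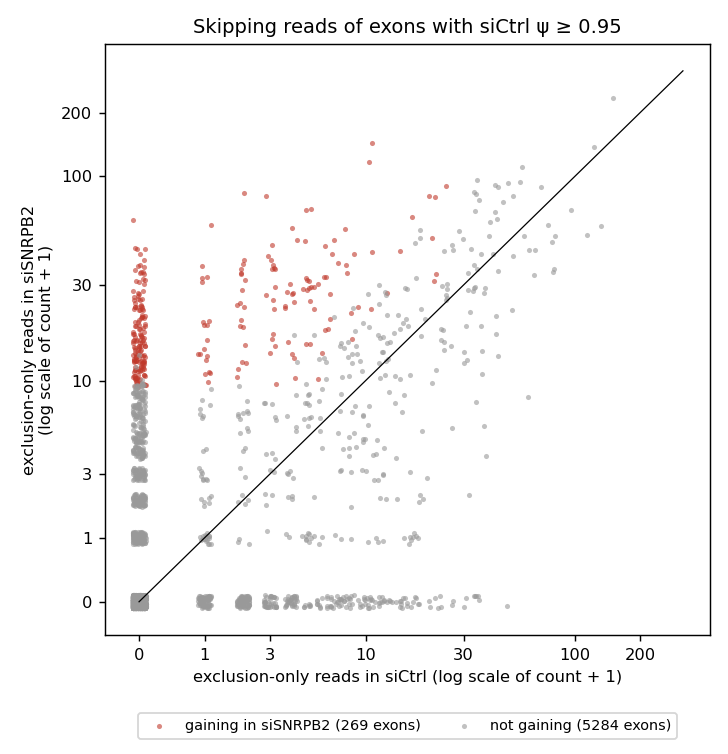
Skipping (exclusion-only) reads of each of the 5553 near-constitutive exons in siSNRPB2 (vertical) against siCtrl (horizontal), on log scales of the count plus 1 with a small random offset. Red points are the 269 exons that gained skipping reads, 153 of which stand in the column at 0 reads in siCtrl, and the line marks equal counts.

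By share of reads, the gains were small in most exons. The 269 gaining exons had a median of 19 skipping reads in siSNRPB2 and a median share of 3.53% of informative reads, with a range of 0.087% to 24.4%. The 215 mirrored gains had a median of 18 reads and 3.57% in siCtrl, up to 22.4%. In siSNRPB2 35 of 269 gains exceeded a share of 10%, against 15 of 215 in siCtrl, and 17 rested on at least 50 skipping reads, against 9. The lowest ψ among the gaining exons was 0.50 in siSNRPB2, in MACF1 and NADK, and 0.58 in siCtrl. In 85 of the 269 gaining exons ψ was still at least 0.95 in siSNRPB2. In 100 of the 269 ψ was lower by at least 0.1, and the median difference was -0.07. Among the 215 mirrored gains 72 were lower by as much in siCtrl, with a median of -0.07. The share counts all reads in the exon as inclusion, so it can lie far below the skipped fraction by ψ. RFFL had a share of 2.63% in siSNRPB2 at a ψ of 0.61. For 153 of the 269 the siCtrl file held no skipping read.

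By share, the largest gain was in ACACA, where siSNRPB2 had 33 skipping and 102 inclusion reads, a share of 24.4% (exact 95% interval 17.5 to 32.6). The siCtrl file had 0 and 182, with an exact 95% interval that reached 2.01%. Set against 3 of these 182 informative reads, 1.65%, the share in siSNRPB2 was at least 14.8-fold higher. ψ was 0.57 in siSNRPB2 and 0.97 in siCtrl. Folds against a count under 3 are given in this way, as at least. They leave out the counting error of both shares, so they are not lower confidence limits. KITLG followed with 37 and 116 reads in siSNRPB2 against 0 and 127 in siCtrl, at least 10.2-fold higher, and ψ of 0.66 and 0.99. The exon of MACF1 had a ψ of 0.50 in siSNRPB2 against 0.98 in siCtrl. It had 27 skipping and 110 inclusion reads in siSNRPB2, against 0 and 253 in siCtrl, at least 16.6-fold. The deposited ψ intervals in siSNRPB2 were 0.48 to 0.67 for ACACA, 0.58 to 0.74 for KITLG and 0.42 to 0.59 for MACF1.

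CDADC1 had 39 skipping and 171 inclusion reads in siSNRPB2 against 0 and 150 in siCtrl, at least 9.29-fold higher. CDK14 had 25 and 115 in siSNRPB2 against 0 and 103 in siCtrl, at least 6.13-fold. Both had a ψ of 0.74 in siSNRPB2, against 0.98 and 0.97 in siCtrl. The 113 nt exon of ARMCX5, in the untranslated part of the transcript, had 33 and 108 reads in siSNRPB2 against 0 and 134 in siCtrl, at least 10.5-fold higher. PRDM15, a zinc finger protein of the PRDM family, had 29 and 151 in siSNRPB2 against 0 and 178 in siCtrl, at least 9.56-fold. All 4 thus had skipping reads in siSNRPB2 and none in siCtrl.

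Other exons had a few skipping reads in siCtrl already. The RBFOX2 exon of 40 nt had 35 skipping and 153 inclusion reads in siSNRPB2, a share of 18.6% (13.3 to 24.9), against 3 and 177 in siCtrl, 1.67% (0.345 to 4.79). BCL2L12, a BCL2 family member, had 65 and 294 reads in siSNRPB2 against 5 and 304 in siCtrl, 11.2-fold higher, on an exon of 140 nt. An overlapping version of 143 nt on the same junction had 65 and 665 in siSNRPB2 against 5 and 765 in siCtrl. The share in siSNRPB2 was 18.1% for the version of 140 nt and 8.9% for that of 143 nt, and ψ was 0.67 and 0.83. VKORC1, the vitamin K epoxide reductase that warfarin inhibits, had 59 and 281 in siSNRPB2 against 8 and 495 in siCtrl, 10.9-fold higher, with ψ of 0.65 and 0.96. AMMECR1 had a share of 17.1% in siSNRPB2 (12.5 to 22.5) and 1.23% in siCtrl (0.149 to 4.36), and WDR44 had 16.7% (10.5 to 24.6) and 0.578% (0.0146 to 3.18). These exons were chosen for their difference in share, so the values are descriptions.

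The exon of FBXW11, an F-box protein of a ubiquitin ligase, lies in untranslated sequence and had 25 and 143 reads in siSNRPB2 against 0 and 209 in siCtrl, at least 10.4-fold higher. MIOS, a subunit of the GATOR2 complex in amino acid sensing, had 23 and 139 reads in siSNRPB2 and no skipping read in siCtrl, at least 4.78-fold higher, also in untranslated sequence. For the MIOS exon, the exact interval of the share in siCtrl reached 3.59%.

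Deeper exons gave smaller shares on more reads. CMC2, a mitochondrial protein of the cytochrome c oxidase assembly family, had 135 skipping and 1232 inclusion reads in siSNRPB2 against 11 and 1175 in siCtrl, 10.6-fold higher, with ψ of 0.88 and 0.99. CCAR1, a coactivator in cell cycle and apoptosis regulation, had 111 and 850 in siSNRPB2 against 10 and 855 in siCtrl, 9.99-fold higher, with ψ of 0.75 and 0.96. RHOA, the GTPase of stress fibre formation, had 86 and 4761 in siSNRPB2 against 24 and 5502 in siCtrl, 4.09-fold higher. Its ψ was 0.96 and 0.99, so the exon stayed near-constitutive in both files. ARHGDIA had 63 and 4003 in siSNRPB2 against 17 and 4916 in siCtrl, 4.50-fold higher.

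ZFAND5 (82 and 1136 reads in siSNRPB2, 23 and 1102 in siCtrl) and the RNA-binding protein RBM23 (79 and 1500, 20 and 1655) had skipping reads in both files, 3.29-fold and 4.19-fold higher by share in siSNRPB2. MLEC, an endoplasmic reticulum lectin, had a share of 4.96% in siSNRPB2 (3.94 to 6.14) and 0.140% in siCtrl (0.0289 to 0.409). ASPH, the aspartate beta-hydroxylase, had 79 and 1502 reads in siSNRPB2, and 2 and 1039 in siCtrl, 0.192% (0.0233 to 0.692). MLEC and ASPH each also had another exon with a gain in siCtrl.

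The mirrored gains in siCtrl reached a like size. The HADHB exon, at chromosome 2, 26269953 to 26269997, had 0 skipping and 104 inclusion reads in siSNRPB2 against 53 and 184 in siCtrl, at least 7.75-fold higher in siCtrl. Its ψ was 0.98 in siSNRPB2 and 0.70 in siCtrl. FAM173A had 0 and 140 reads in siSNRPB2 against 35 and 136 in siCtrl, and C12orf29 had 0 and 131 against 32 and 125. The lowest ψ of the mirrored gains was that of C12orf29, 0.96 in siSNRPB2 and 0.58 in siCtrl. ASPH, by a different exon of 39 nt, had a ψ of 0.98 in siSNRPB2 and 0.61 in siCtrl. An overlapping version of 42 nt, with the same counts of skipping reads, had a ψ of 0.99 in siSNRPB2 and 0.79 in siCtrl. ENTR1 (0.98 and 0.71), MCRIP2 (0.97 and 0.69), TUSC3, a subunit of the oligosaccharyltransferase (0.99 and 0.80), and RSU1, a focal adhesion protein (0.98 and 0.75), completed the 8 largest.

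**Figure D3:**
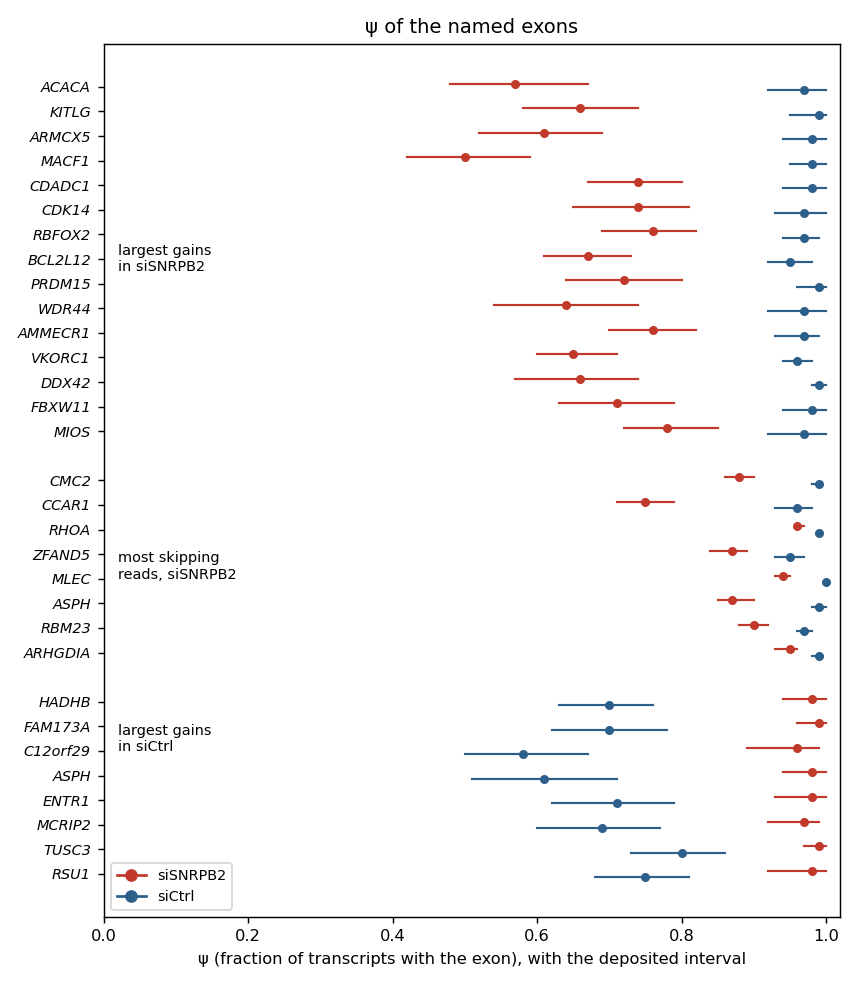
ψ with its deposited interval in siSNRPB2 (red) and siCtrl (blue) for the 15 exons with the largest gain of skipping reads in siSNRPB2, the 8 others with the most skipping reads, and the 8 mirrored exons with the largest gain in siCtrl, each with 1 exon per gene. The first group lies between 0.50 and 0.78 in siSNRPB2, and the last between 0.58 and 0.80 in siCtrl. High values in the file used for selection follow from the choice.

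Inclusion reads were next set against the shared reads of the neighbouring exons. Only the shared reads were not used in the definition of a gain. Among exons with at least 20 shared reads in each file, the median log2 ratio of inclusion to shared reads, siSNRPB2 over siCtrl, was -0.08 in 248 gaining and -0.03 in 4771 other near-constitutive exons. It was below 0 in 56.9% of the gaining and 52.8% of the others. In the mirrored selection, with siCtrl over siSNRPB2, the medians were -0.06 in 204 gaining and -0.05 in 4807 other exons. There the ratio was below 0 in 52.5% of the gaining and 54.1% of the others, the opposite order. The exons varied widely in it: KITLG, with 56 shared reads in siSNRPB2 and 28 in siCtrl, was lower in siSNRPB2, and ACACA, with 56 and 133, was higher.

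Some exons had further events with other neighbours and hence another skipping junction. Of 40 gaining exons with such an event, 3 also gained on the further junction in siSNRPB2, in CMC2, FBXW11 and SUN1. Of 37 mirrored exons 1 did so in siCtrl. Only 16 of the 40 and 11 of the 37 had any skipping read on the further junction.

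Some exons were called lower without any skipping read. By a ψ lower by at least 0.1 and a Bayes factor of at least 10 in the authors' deposited table, 175 near-constitutive exons (3.15%) were lower in siSNRPB2, and 184 mirrored exons (3.33%) were lower in siCtrl. Over all 8453 exons, which were free to differ from any starting ψ, 5.99% were lower in siSNRPB2 and 5.77% in siCtrl. The order of the selected counts depended on the size of difference asked for: with at least 0.05 and the same Bayes factor they were 257 in siSNRPB2 and 238 in siCtrl. Of the 175, 56 had no skipping read in any file and 89 had gained skipping reads. Of the 184, 90 had none and 67 had gained. The lowest of the 56 were KIF21A, a kinesin (ψ 0.41 in siSNRPB2 and 0.95 in siCtrl), PABPC4, a poly(A) binding protein (0.44 and 0.97), and MADD, a Rab exchange factor (0.44 and 0.98). RPRD1B, a regulator of RNA polymerase II (0.47 and 0.98), and TCIRG1, a proton pump subunit (0.50 and 0.97), followed. The KIF21A exon had 137 inclusion and 180 shared reads in siSNRPB2, against 224 and 100 in siCtrl. Its low ψ rests on those reads, without a read across the skipping junction.

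Gaining exons were shorter than the rest, in both directions. Their median length was 111 nt in siSNRPB2, against 129 nt in the other near-constitutive exons, and 122 nt for the mirrored gains in siCtrl against 130 nt. Of 169 exons of 50 nt or less, 20 gained in siSNRPB2 (11.8%), and of 158 mirrored ones 13 gained in siCtrl (8.23%). Between 51 and 100 nt the percentages were 6.10 and 3.44, above 100 and up to 200 nt they were 4.17 and 4.56, and above 200 nt they were 3.71 and 2.13. The excess in siSNRPB2 was therefore not found between 100 and 200 nt, the largest class with 2782 exons. Split into 5 equal classes by inclusion reads, the percentages were 3.51 in siSNRPB2 and 2.83 in siCtrl in the class with the fewest reads, and 8.10 and 5.14 in that with the most. In the middle class the order was turned, with 3.87 and 4.39.

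Of the 269 gaining exons 213 lay in coding sequence, and 105 of these (49.3%) had a length divisible by 3, against 43.4% of coding exons that did not gain. Among mirrored gains it was 82 of 171 (48.0%), against 43.8%. Exons in untranslated regions gained in 20 of 248 cases in siSNRPB2 (8.06%) and in 10 of 243 in siCtrl (4.12%). The median intron before the exon was 2567 nt in gaining and 2441 nt in other near-constitutive exons, and the median intron after it 2036 and 2027 nt. Median GC content was 47.7% and 48.0%. The exon began with G in 49.8% of 259 gaining exons with sequence and in 46.4% of the others, and ended with G in 79.2% and 81.7%. For the mirrored gains these shares were 41.3% for the first and 82.5% for the last base. Skipping was annotated for 93.3% of gaining and 93.2% of other exons. These features are descriptions of 1 pair of files and were not tested.

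**Figure D4:**
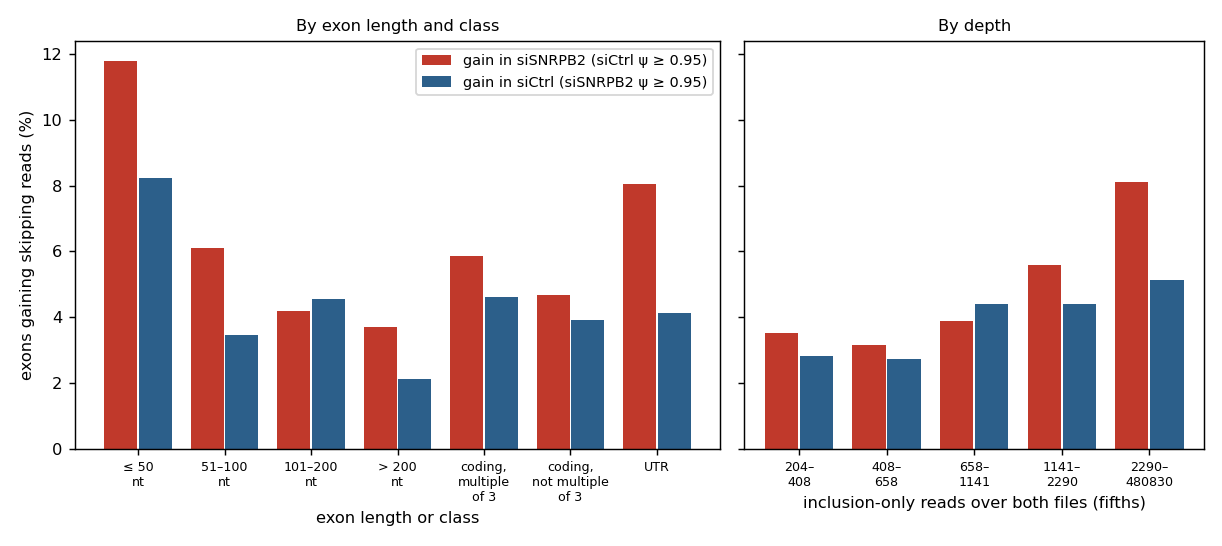
Percentage of exons gaining skipping reads in siSNRPB2 (red, siCtrl ψ at least 0.95) and in siCtrl (blue, siSNRPB2 ψ at least 0.95) by exon length and class on the left, and by 5 equal classes of inclusion reads over both files on the right. Exons of 50 nt or less gained most often in both directions, 11.8% and 8.23%, and the deepest class reached 8.10% and 5.14%.

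Gains were then counted by gene list. In all 3481 genes with a near-constitutive exon, 239 had a gaining exon in siSNRPB2 (6.87%), against 191 of 3461 genes in siCtrl (5.52%). The median ψ difference, siSNRPB2 minus siCtrl, was 0.00 over all near-constitutive exons and in 15 of the 16 lists, and -0.01 for apoptosis genes. The lists were chosen with earlier results of these data known, and their counts are descriptions. The lists also differed in depth. The median of inclusion reads over both files was 861 over all near-constitutive exons. By list it ranged from 762 for the p53 pathway to 10464 for ribosomal proteins. It was 1056 for apoptosis, 1264 for mitosis and cytokinesis, 2469 for actin and adhesion, and 974 for membrane trafficking. Whether depth shaped the counts per list was not tested.

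Apoptosis genes had a gaining exon in 7 of 18 genes in siSNRPB2, against 1 of 18 in siCtrl. By exons it was 11 of 36 (30.6%) against 1 of 36, where 4.84% and 3.89% of all selected exons gained. The 11 exons lay on only 7 skipping junctions, so some of them counted the same reads. The 7 genes were BCL2L12, BCL2L13, MCL1, BIRC2, XIAP, CASP8 and TNFRSF10B, and the 1 in siCtrl was DIABLO. The 7 hold members of both sides of the pathway: MCL1 protects cells, BIRC2 and XIAP are inhibitor of apoptosis proteins, and CASP8 and the death receptor TNFRSF10B start the cascade. In MCL1 the exon is the one whose loss is known to turn the protein into a short pro-apoptotic form. It had 44 skipping and 6562 inclusion reads in siSNRPB2, a share of 0.666% (0.484 to 0.893), against 3 and 8362 in siCtrl, 0.0359% (0.0074 to 0.105). ψ was 0.99 in siSNRPB2 and 1.00 in siCtrl. BCL2L13 had 10 and 220 reads in siSNRPB2 against 1 and 320 in siCtrl. TNFRSF10B had 19 and 967 in siSNRPB2 against 1 and 814 in siCtrl. XIAP had 18 and 1472 in siSNRPB2 against 0 and 2002 in siCtrl. BIRC2 had 12 skipping reads in siSNRPB2 and 0 in siCtrl on 1 junction that 3 overlapping exons share. CASP8 had 11 and 1, and BCL2L12 65 and 5, each on a junction that 2 share. In the authors' deposited table the Bayes factors were 0.49 and 0.45 in CASP8, 9.57 to 492 in BIRC2, and at least 26.4 in the remaining genes. Except for BCL2L12, these shares were below 5% in siSNRPB2.

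Genes of mitosis and cytokinesis had a gaining exon in 9 of 51 genes in siSNRPB2, against 2 of 44 in siCtrl. The 9 were ANLN, CCNB1, CDC25B, CKAP2, KIF20A, KIF2C, MIS12, NUMA1 and PRC1, and the 2 were AURKB and CENPN. CCNB1, the mitotic cyclin B1, had 16 skipping and 299 inclusion reads in siSNRPB2 against 0 and 384 in siCtrl, at least 6.50-fold higher. These values are for an exon version of 59 nt, with a share of 5.08% in siSNRPB2. An overlapping version of 111 nt on the same junction had 16 and 564 in siSNRPB2, a share of 2.76%, against 0 and 768 in siCtrl. The kinetochore gene MIS12, with an untranslated exon of 394 nt, had 53 and 1204 in siSNRPB2 against 21 and 1763 in siCtrl, 3.58-fold higher. CDC25B, a phosphatase that activates the mitotic kinase, had 24 and 717 in siSNRPB2 against 3 and 928 in siCtrl. PRC1, a spindle midzone protein, gained at 2 exons on different junctions, with 25 and 11 skipping reads in siSNRPB2 against 0 and 2 in siCtrl.

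Actin and adhesion genes had 7 of 49 genes with a gain in siSNRPB2 and 2 of 46 in siCtrl. Besides MACF1 and RHOA, these included ACTR3, a subunit of the actin-nucleating Arp2/3 complex (40 and 511 reads in siSNRPB2, 8 and 697 in siCtrl, 6.40-fold higher), and FLNC, a filamin (12 and 842, 1 and 1627). The other 3 in siSNRPB2 were ACTN1, CTNNA1 and TPM3, and the 2 in siCtrl were CTNND1 and ITGA6.

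The lists of splicing genes ranged from 1 of 15 to 5 of 28 genes in siSNRPB2. Among U2 and 3' splice site factors, the only gain in siSNRPB2 was in DDX42, a helicase that binds the U2 component SF3B1, 1 of 11 genes. Its exon of 37 nt had 24 skipping and 132 inclusion reads in siSNRPB2 against 0 and 485 in siCtrl, at least 24.9-fold higher, with ψ of 0.66 and 0.99. The only gain in siCtrl, 1 of 12 genes, was in SNRPA1, with 0 and 3609 in siSNRPB2 against 24 and 1562 in siCtrl, at least 18.2-fold higher in siCtrl. The core spliceosome had 1 gain in siSNRPB2, in PLRG1 (13 and 921 reads, against 0 and 1025 in siCtrl), of 15 genes, and 0 of 16 in siCtrl. SR proteins, hnRNPs and related regulators had 5 of 28 genes in siSNRPB2 (RBFOX2, MATR3, MBNL1, MBNL2 and EWSR1) and 4 of 26 in siCtrl (HNRNPC, HNRNPR, MBNL1 and SRSF10). MATR3, a nuclear matrix protein that binds RNA, had 50 and 607 in siSNRPB2 against 5 and 684 in siCtrl, 10.5-fold higher. Nonsense-mediated decay had 2 of 11 genes in each direction. One of them in siSNRPB2 was UPF3A, with 43 and 880 against 0 and 1068 in siCtrl, at least 16.6-fold higher.

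Several lists had more gains in siCtrl. Membrane trafficking had 5 of 77 genes in siSNRPB2 against 10 of 82 in siCtrl, oxidative phosphorylation 3 of 38 against 6 of 38, DNA replication and repair 2 of 59 against 5 of 62, and translation factors 0 of 28 against 2 of 29. In the clathrin adaptor PICALM the near-constitutive exon with a gain (21 and 310 reads in siSNRPB2, 0 and 299 in siCtrl) had a Bayes factor of only 1.88 in the authors' deposited table. POLD1, the catalytic subunit of DNA polymerase delta, had 15 and 186 in siSNRPB2 against 0 and 213 in siCtrl. In the remaining lists, chromatin regulators had 4 of 63 genes in siSNRPB2 against 1 of 59 in siCtrl, the proteasome 2 of 21 against 1 of 21, ribosomal proteins 1 of 21 against 0 of 20, mRNA processing and export 1 of 23 against 0 of 26, and the p53 pathway 1 of 12 in each. Among them, the proteasome assembly factor PSMG1 had 39 and 340 in siSNRPB2 against 3 and 517 in siCtrl, and the chromatin remodeller CHD2 had 19 and 777 against 0 and 1136.

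**Figure D5:**
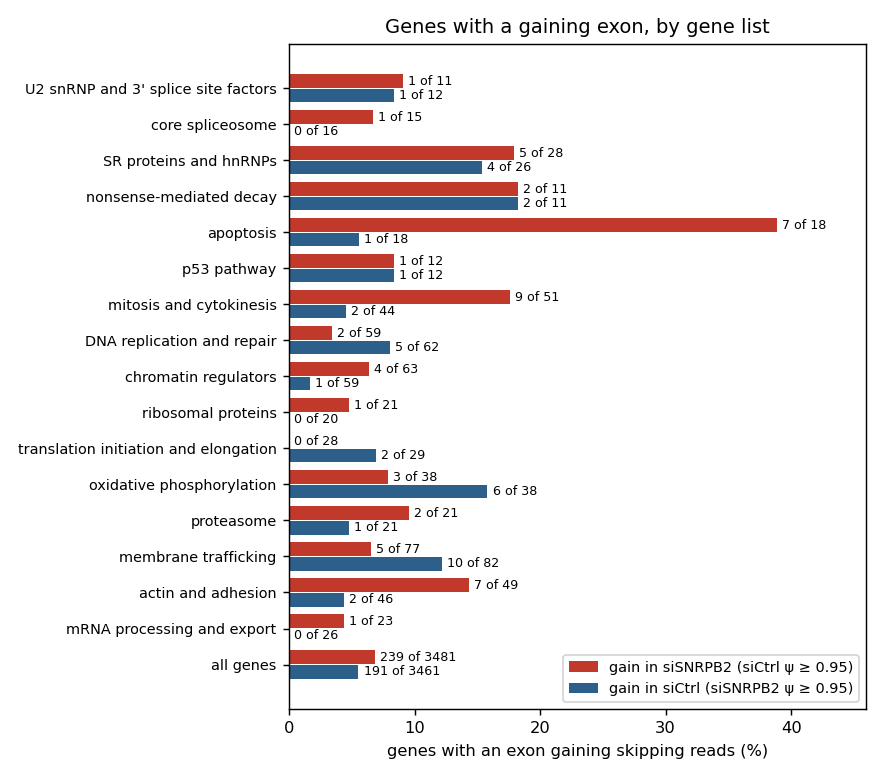
Percentage of the genes of each list with an exon gaining skipping reads in siSNRPB2 (red) or, in the mirrored selection, in siCtrl (blue), with the numbers of genes. Apoptosis genes stand at 7 of 18 and 1 of 18, mitosis and cytokinesis at 9 of 51 and 2 of 44, and membrane trafficking at 5 of 77 and 10 of 82, beside 239 of 3481 and 191 of 3461 for all genes.

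In 28 genes 2 or more near-constitutive exons gained in siSNRPB2, but in 20 of these all lay on 1 skipping junction and so counted the same reads. On different junctions were the pairs in ASPH, C12orf75, H2AFV, MARCH7, PAM, PRC1, RNF8 and SCP2. PAM, the enzyme that amidates peptide hormones, had 39 skipping and 246 inclusion reads on its exon of 58 nt in siSNRPB2, against 0 and 214 in siCtrl. On its exon of 321 nt it had 36 and 1658 in siSNRPB2, against 0 and 1743 in siCtrl. SCP2, a peroxisomal lipid carrier, had 13 and 264 reads on the exon at chromosome 1, 53038917 to 53039046 in siSNRPB2, against 0 and 639 in siCtrl, with ψ of 0.74 and 0.99. Of other genes of interest in this study, PLEC, a cytoskeletal linker, had 59 skipping beside 230646 inclusion reads in siSNRPB2, and 123 beside 250184 in siCtrl. The 4 near-constitutive NASP exons had 0 skipping reads in siSNRPB2, and 1 of them had 7 in siCtrl. The SPTAN1 and MDM4 exons had 0 in both files.

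Near the threshold, 149 exons had a siCtrl ψ of 0.95 and 15 of them gained in siSNRPB2, and 137 had 0.94 with 17 gains. The deepest just inside were in OAZ1 (ψ 0.97 in siSNRPB2 and 0.95 in siCtrl), DTX3L (0.99 and 0.95) and CAST (0.93 and 0.95), and just outside in YLPM1 (0.93 and 0.94), FOSL1 (0.94 and 0.94) and RPS9 (1.00 and 0.94).

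The siSNRPB2 file listed 42670 events and the siCtrl file 42159. Near-constitutive exons had a median of 401 inclusion reads in siSNRPB2 and 462 in siCtrl. In the 4171 of them with no skipping read and with shared reads, the ratio of inclusion to shared reads differed between the files by a median chi-square 11.9 times that of independent reads. Whether skipping reads share this excess over counting error was not tested. Of the exons with any skipping read, 14.7% had exactly 1 in siSNRPB2 and 17.1% in siCtrl. No event used here lies in SNRPB2, so the knockdown could not be checked in the files. Of 12 mesenchymal markers 9 had events, with 92 to 40457 compatible reads in siSNRPB2 and 108 to 50227 in siCtrl. Of 9 epithelial markers 5 had them, from 10 to 11312 and from 1 to 13755, the highest in KRT8. CDH1, EPCAM and VIM were among those without an event, and of 5 blood and endothelial markers 2 had any, with at most 55 and 51 reads.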

How the data were processed

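Total RNA was sequenced from 2 libraries per group, 4 in all, made with a stranded low-input kit, per the labels. The submitters' processing notes name STAR 2.7 and hg38. The authors deposited ψ as a fraction, its interval, and read counts per class of compatibility, in the column layout of MISO, per the file headers. Their deposited comparison holds a ψ difference and a Bayes factor, the ratio of evidence for to evidence against a difference. It also has 10 columns that repeat values of the group files and were not used. Not given in the sources used here are the MISO version, its events, the interval level and how a group's libraries were combined. The labels do not say whether libraries came from separate cultures.

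Exons, 16 gene lists and rules were chosen with earlier results of these data known. Isoform 1 of an event holds the exon, so class (1,0) counts inclusion and (0,1) skipping reads. Ties between events of an exon (63 exons) were broken by event name. Genes, exon classes and sequences came from GENCODE 29 by exact exon position. Exact intervals are Clopper-Pearson. Named exons were the 15 largest differences in skipping share in siSNRPB2, the 8 others with the most skipping reads, the 8 largest mirrored ones (each 1 per gene), up to 3 per list, genes of the study, the 5 lowest without skipping reads, those at the threshold and genes with several gaining exons. XIAP was given values after they were seen. The rule for gains was run on simulated independent reads. That run lacked the excess over counting error seen between the files in the ratio of inclusion to shared reads. It therefore cannot tell how often such noise passes the rule. Alternatives changed thresholds, event choice, selection and scaling. No p-value was computed. Software was Python 3.11.15 with pandas 2.3.3, numpy 2.4.6, matplotlib 3.10.9 and scipy 1.17.1.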

Additional observations from a re-analysis of the deposited data

Results flagged for a closer look

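Over the near-constitutive exons, 50.3% of the reads listed for their events in siSNRPB2 fitted no isoform of the event, against 48.5% in siCtrl. No comparison above used these reads. Per exon, the median log2 ratio of these reads to those that fitted an isoform, siSNRPB2 over siCtrl, was 0.12, and it was above 0 in 3498 of 5553 exons. Over all 8453 exons of the same depth the median was 0.11, and over the exons that gained skipping reads in siSNRPB2 it was 0.16. The value is listed because it lies outside the reads behind ψ and was higher than in the control file. Whether it differs from the spread between libraries cannot be told with 1 value per group.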

How the results depend on the processing

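The percentage gaining was higher in siSNRPB2 than in the mirrored selection under all 23 alternatives, with ratios from 1.07 to 1.88 around 1.25. The counts in siSNRPB2 and in siCtrl stayed within 1.5 times of 269 and 215, except as follows. They were 151 and 103 with at least 500 inclusion reads, 91 and 59 with at least 1000 (ratio 1.51), and 129 and 88 with at least 20 skipping reads. They were 17 and 9 with at least 50 (ratio 1.88), and 86 and 79 where ψ had to be at least 0.95 in both files (ratio 1.09). A ψ lower by 0.05 with any Bayes factor gave 537 and 500 (ratio 1.07). With a fold of at least 5 they were 187 in siSNRPB2 and 103 in siCtrl (ratio 1.81), of which the second moved by over 1.5 times. The cause was not tested. The minimums of 1000 and 50 reads and 1 exon per skipping junction (247 and 194) were chosen after seeing the data. Exons lower by ψ numbered 91 in siSNRPB2 and 106 in siCtrl with a difference of at least 0.2, and 257 and 238 with at least 0.05, against 175 and 184 with at least 0.1, so their order depends on this choice. The skipping share as a median over exons with at least 10 skipping reads was 1.63% in siSNRPB2 and 0.512% in siCtrl, and 0.46% and 1.36% in the mirrored selection. Without the 10 exons with the most skipping reads the summed shares were 0.225% and 0.109%, and 0.111% and 0.162%. No paired analysis was possible because the files hold 1 value per group and no replicate columns, and leaving out a replicate was not run for the same reason. Shares of exons with few reads are limited by depth, since 0 skipping reads among 103 informative ones have an exact 95% interval up to 3.52%.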
